A study of Mus musculus with 4 samples.

Results

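The genes described here are 9 of the 24346 gene symbols listed for cultured mouse hair follicle stem cells (HFSCs), the chains of the type I and type II interferon receptors (Ifnar1, Ifnar2, Ifngr1 and Ifngr2), the Janus kinases Jak1, Jak2 and Tyk2, and the transcription factors Stat2 and Irf9. They were chosen by gene symbol with the differences between 10 and 48 passages already in view, so their own differences are given as a description and without a test. All 9 symbols were found in each library, and all 9 passed the filter on low values, which asked for 1 FPKM or more in 2 or more libraries. FPKM is a count of fragments scaled by the exon length of the gene and by the mapped fragments of the library, so levels can be set side by side between genes. Polyadenylated RNA was sequenced in 4 libraries, 2 of cells after 10 passages (10p-HFSCs) and 2 of cells after 48 passages (48p-HFSCs). Both groups were cells of C3H/HeN mice, sorted from dorsal skin by CD49f and CD34 and grown in a serum-free medium named M-CnT, and the labels name the passage number alone as what sets the groups apart. No source used here states whether the 2 libraries of a group came from separate cultures or animals, so p-values measure the spread between these libraries, which may be technical.

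Type I interferons bind a receptor made of the chains IFNAR1 and IFNAR2, and type II interferon binds a receptor made of IFNGR1 and IFNGR2. The chains have no enzymatic activity and carry Janus kinases on their cytoplasmic parts, TYK2 and JAK1 on the type I receptor and JAK1 and JAK2 on the type II receptor. After ligand binding the kinases phosphorylate STAT proteins, and STAT2 and IRF9 take part in the complex ISGF3, which binds the interferon-stimulated response element of antiviral genes, while STAT dimers bind a palindromic site. Keratinocytes are known to respond to both kinds of interferon.

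The stretches before the start sites of Stat2, Irf9, Ifnar2 and Ifnar1 are shown because Ifnar2 had the largest difference among the receptor genes, Ifnar1 is its partner chain, and Stat2 and Irf9 encode the factors that bind at such stretches of other genes. Sequences are those of RefSeq on GRCm38.p6, the assembly of mm10, read 5′ to 3′ on the strand of the gene, which is the plus strand for all 4. Capitals mark a match to the core of the interferon-stimulated response element (GAAA, 2 bases of any kind and GAAA, or its reverse complement) or to the STAT site TTCNNNGAA, which reads the same on both strands. Bases are counted from the start site, with 1 as the first transcribed base and -1 as the base before it. The first 3 windows run from -250 to -1, and the window of Ifnar1 from -120 to 4. For Irf9 the first RefSeq start site was used. Its window lies within the span of Irf9 in the gene annotation used for positions, which starts at 55603571.
Stat2, chr10:128270248-128270497: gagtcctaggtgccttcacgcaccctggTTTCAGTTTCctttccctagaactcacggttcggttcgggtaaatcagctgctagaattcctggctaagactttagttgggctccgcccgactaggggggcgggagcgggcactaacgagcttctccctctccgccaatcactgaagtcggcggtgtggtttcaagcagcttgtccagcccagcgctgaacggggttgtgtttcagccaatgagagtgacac
Irf9, chr14:55603735-55603984: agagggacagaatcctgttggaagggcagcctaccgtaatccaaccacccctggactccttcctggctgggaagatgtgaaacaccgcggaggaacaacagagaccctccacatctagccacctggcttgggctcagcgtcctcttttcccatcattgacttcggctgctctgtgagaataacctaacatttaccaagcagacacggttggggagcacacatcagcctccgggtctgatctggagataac
Ifnar2, chr16:91372533-91372782: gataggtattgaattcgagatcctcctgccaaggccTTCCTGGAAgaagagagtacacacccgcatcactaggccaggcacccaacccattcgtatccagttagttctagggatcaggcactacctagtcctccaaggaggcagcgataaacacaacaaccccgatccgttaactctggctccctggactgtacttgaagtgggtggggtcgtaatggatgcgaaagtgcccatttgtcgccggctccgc
Ifnar1, chr16:91485095-91485218: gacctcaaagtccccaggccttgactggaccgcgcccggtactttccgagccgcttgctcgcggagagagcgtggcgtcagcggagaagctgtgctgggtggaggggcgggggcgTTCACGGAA

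All 9 genes had a window of 250 bases before and 50 bases after a start site in the RefSeq table. The response element core was found for 1 of the 9 genes, Stat2, from -222 to -213. It was found for 3.99% of all 27025 genes with a window, and in 3.44% of all 32851 windows. The STAT site was found for 2 of the 9 genes, Ifnar2 from -214 to -206 and Ifnar1 from -5 to 4. It was found for 9.55% of all genes with a window, and in 8.3% of all windows. Of 21 antiviral genes known as interferon targets, 16 had a window, and 9 of the 16 held the response element core. Isg15 had 3 overlapping matches of it between -78 and -57. These matches describe letters in a short window and not binding. All of the 9 genes had a window with more CpG pairs than the median of 7 over all windows, from 9 for the first start site of Irf9 to 44 for Jak2, although a later start site of Irf9 had 1.

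The 4 libraries stood apart in ways that touch the values below. Summed FPKM was 581516 and 719012 after 10 passages and 666018 and 1414953 after 48 passages, and the depth of replicate 2 of 48p-HFSCs, estimated from the steps between low values, was 46.7% of that of replicate 1 of 10p-HFSCs. By exon length, the median log2 difference of replicate 1 minus replicate 2 of 48p-HFSCs was -0.38 over the 2654 shortest genes and 0.22 over the 2653 longest. Of 8 markers of hair follicle stem cells and basal keratinocytes, Krt5, Krt14, Itga6 and Trp63 were at an FPKM of 20.8 or more in every library, but Cd34 was at 0.234 or less and Lhx2 at 0.024 or less. Sox9 was called lower in 48p-HFSCs, from 45.6 and 44.2 to 20.2 and 8.31 (limma adjusted p = 0.039), and Itga6 was called higher (limma adjusted p = 0.014). By qRT-PCR the paper reports the opposite for Sox9, a significant increase in the cells of the later passage, and an increase of Lhx2 as well. The paper also reports Cd34 expression as maintained, and most cells of both groups as CD34-positive by antibody. The cause of these conflicts with the FPKM values was not tested. Krt15 was at 136 and 82.6 and then at 425 and 18.8, so that its 48p-HFSC replicates lay 22.6-fold apart. Of 8 leukocyte markers, Cd3e and Tyrobp were at 0 in all libraries and Ptprc was at 0.071 or less, while the summed level of the list was 9.31 and 8.64 after 10 passages and 121 and 185 after 48 passages, mainly through Cd74 and Cd68. Cd74, Cd68 and Lyz2 were called higher and 0 of the list lower, beside 10.8% and 9.15% of all genes tested. Csf1r and Cd79a, at lower levels and not called, were also higher in both 48p-HFSC libraries than in either 10p-HFSC library. Of 6 fibroblast markers, Col1a1, Col3a1 and Pdgfra stayed under 1, and the summed level was 353 and 388 after 10 passages and 5.85 and 4.17 after 48 passages, mainly through Vim and Col1a2. Twist2 went the other way, from 0.044 and 0.062 to 3.35 and 0.849, and did not pass the filter on low values. The endothelial list summed to 2.54 or less and the melanocyte list to 1.56 or less in every library. In bulk RNA, fewer cells of a type and less RNA per cell cannot be told apart, and the part of these markers in the results below was not tested.

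The plot of FPKM by library shows the 9 genes in 3 patterns. Ifnar2 was listed at 0 in 10p-HFSCs and was among the 3 genes with the highest means of the set in 48p-HFSCs. Ifngr2, Stat2 and Irf9 were at 3 to 9 times their 10p-HFSC level after 48 passages, and Ifnar1, Ifngr1, Jak1, Jak2 and Tyk2 differed between the group means by less than 1.5-fold in either direction.

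**Figure D1:**
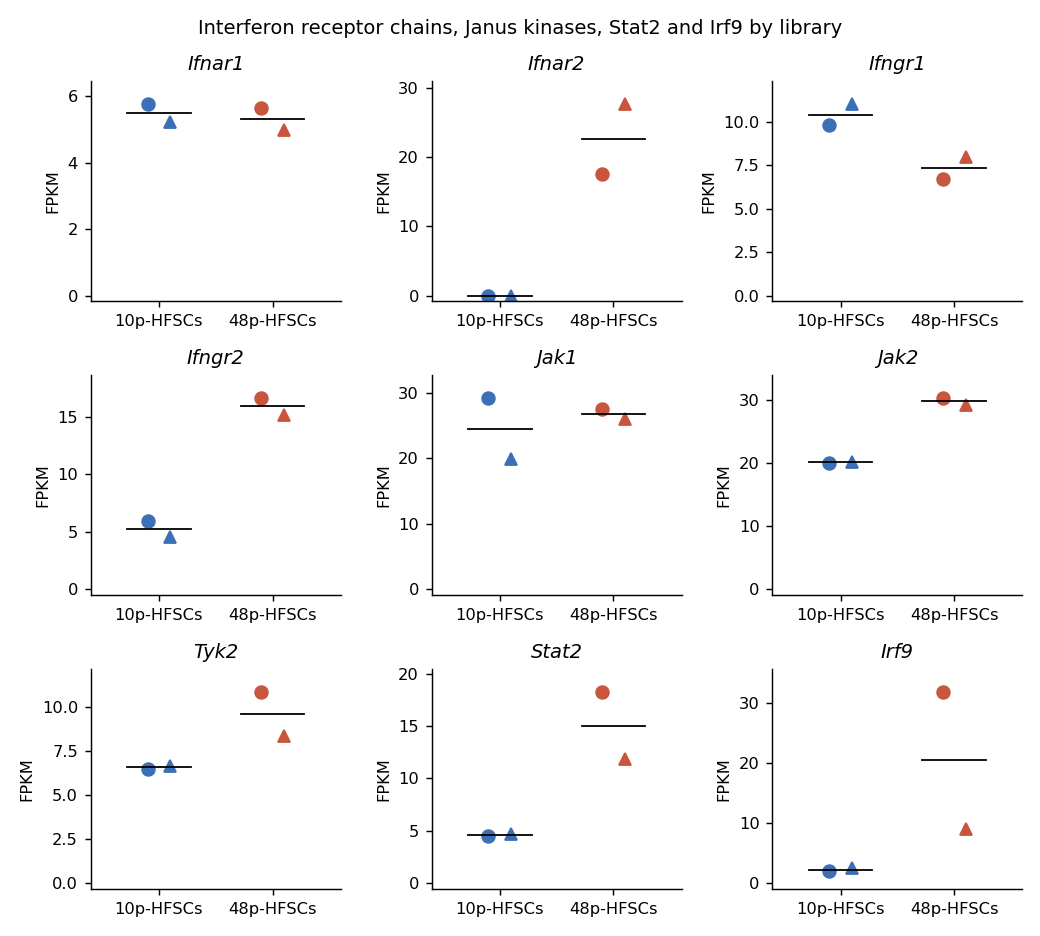
FPKM of the 9 genes on linear axes that start at 0, for 10p-HFSCs (blue) and 48p-HFSCs (red). Circles are replicate 1, triangles replicate 2 and horizontal lines the mean of the 2 libraries. Ifnar2 is at 0 in both 10p-HFSC libraries, and the replicates of 48p-HFSCs lie farthest apart for Irf9.

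Ifnar2, the chain of the type I receptor that binds interferon with high affinity, had 0 in the 10p-HFSC libraries and was at 17.5 and 27.7 FPKM after 48 passages, a mean of 22.6 ± 7.19 (SD, n = 2). No fold can be given against a group listed at 0. Across all symbols, 12 genes were at 0 in both 10p-HFSC libraries and at 10 or more in both 48p-HFSC libraries, and 20 genes showed the opposite. Of 25 subunits of the 20S proteasome and of RNA polymerase II, which every cell uses, 0 were at 0 in any library. They cannot show how reads were assigned at Ifnar2 itself, which was not tested. On the log2(FPKM + 1) scale the difference of Ifnar2 was 4.53 (standard error 0.31), a value set by the 1 added to each FPKM. With 0.1 added it was 7.79.

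Ifnar1, the partner chain, was at 5.77 and 5.22 FPKM after 10 passages and at 5.66 and 4.996 FPKM after 48 passages. The libraries of the groups overlapped, and the log2 difference was -0.04 (standard error 0.27). Within each 48p-HFSC library, which removes any scaling between libraries, Ifnar2 was at 3.10 and 5.54 times the level of Ifnar1. The chain listed at 0 in 10p-HFSCs was thus the more abundant of the pair after 48 passages.

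Of the type II receptor, Ifngr1, the chain that binds the ligand, was at 9.80 and 11.02 FPKM after 10 passages and at 6.69 and 7.95 FPKM after 48 passages. Both 48p-HFSC values lay below both 10p-HFSC values, with a log2 difference of -0.46 (standard error 0.27). Ifngr2, the chain that carries JAK2, was at 5.97 and 4.57 FPKM after 10 passages and at 16.6 and 15.1 FPKM after 48 passages. Its group means differed 3.01-fold, with a log2 difference of 1.44 (standard error 0.27) and no overlap. The order of the chains was therefore turned within the libraries. The ratio of Ifngr2 to Ifngr1 was 0.609 and 0.415 after 10 passages and 2.49 and 1.90 after 48 passages.

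Of the kinases, Jak1, which serves both receptors, was at 29.3 and 19.9 FPKM after 10 passages and at 27.5 and 26.1 FPKM after 48 passages, a log2 difference of 0.14 (standard error 0.28), and the 10p-HFSC libraries enclosed the 48p-HFSC libraries. Jak2, the kinase of the type II receptor, was at 20.1 and 20.3 and then at 30.4 and 29.3, a log2 difference of 0.54 (standard error 0.24). Tyk2, the kinase held by IFNAR1, was at 6.48 and 6.69 and then at 10.9 and 8.37, a log2 difference of 0.48 (standard error 0.28). For Jak2 and Tyk2 both 48p-HFSC values lay above both 10p-HFSC values, but with each library rescaled to the same summed FPKM (TPM), a step that moved the median of all genes by -0.52, the differences of Jak1, Jak2 and Tyk2 were -0.42, -0.02 and -0.03. Relative to the median of all genes tested, the difference of Jak2 was 0.58 as deposited and 0.54 after rescaling, and that of Tyk2 was 0.51 and 0.53.

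Stat2, the STAT protein of ISGF3 that holds IRF9, was at 4.48 and 4.71 FPKM after 10 passages and at 18.3 and 11.8 FPKM after 48 passages. The group means differed 3.28-fold, with a log2 difference of 1.49 (standard error 0.31). Irf9, the subunit of ISGF3 that recognises DNA, was at 2.03 and 2.49 FPKM after 10 passages and at 31.8 and 8.998 FPKM after 48 passages. Both genes were higher in each 48p-HFSC library than in either 10p-HFSC library, and for Irf9 the 48p-HFSC libraries also differed 3.54-fold from each other. The means of Irf9 differed 9.02-fold, with a log2 difference of 2.48 (standard error 0.57), which was 3.33 without replicate 2 of 48p-HFSCs and 1.62 without replicate 1. The first exon of the longest Irf9 model overlaps the end of Rnf31 on the same strand, and Rnf31 was at 3.14 and 2.28 FPKM after 10 passages and at 11.2 and 14.99 FPKM after 48 passages, so reads could have been shared.

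By their levels per length, the genes stood in a different order in the groups. In 10p-HFSCs the means ran from 24.6 for Jak1 and 20.2 for Jak2 through 10.4 for Ifngr1, 6.58 for Tyk2, 5.50 for Ifnar1, 5.27 for Ifngr2, 4.59 for Stat2 and 2.26 for Irf9 to 0 for Ifnar2. Neighbours whose libraries overlapped were Jak1 and Jak2, Ifnar1 and Ifngr2, and Ifngr2 and Stat2. In 48p-HFSCs the order was Jak2 (29.9), Jak1 (26.8), Ifnar2 (22.6), Irf9 (20.4), Ifngr2 (15.9), Stat2 (15.1), Tyk2 (9.63), Ifngr1 (7.32) and Ifnar1 (5.33). There Jak1 and Ifnar2, Ifnar2 and Irf9, Irf9 and Ifngr2, and Ifngr2 and Stat2 overlapped, and the other neighbours did not.

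Read against all genes, 4 of the 9 genes, Ifnar2, Ifngr2, Stat2 and Irf9, lay past the limits of a limma adjusted p-value under 0.05 and a log2 difference of at least 1 in the direction of 48p-HFSCs, beside 10.8% of the 11018 genes tested. The opposite direction held 9.15% of genes tested. The 48p-HFSC libraries both exceeded the 10p-HFSC libraries for 6 of the 9 genes, beside 31.7% of genes tested, and both lay below them for 1 of the 9, beside 34.3%. The median log2 difference was 0.54 for the 9 genes and -0.03 for all genes tested. Nothing is read from these counts, since the set was made with this contrast known. Ifnar2, at 0 in both 10p-HFSC libraries, also passed the filter only through the 48p-HFSC libraries, so its place among the 6 was fixed in advance. After TPM rescaling 1 of the 9 lay past the limits in the direction of 48p-HFSCs, beside 5.65% of genes tested, and the log2 differences of Ifngr2 and Stat2 were 0.94 and 1.01 and that of Ifnar1 was -0.53. Relative to the median of all genes tested, Ifngr2, Stat2 and Ifnar1 were at 1.49, 1.57 and 0.02 after rescaling. As deposited they were at 1.47, 1.53 and -0.005 on that measure. With no filter on low values 0 of the 9 lay past the limits, beside 0.476%, and without replicate 1 or replicate 2 of 10p-HFSCs 0 did, beside 0.318% and 0.327%, as the spread was then estimated from the 48p-HFSC libraries alone.

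**Figure D2:**
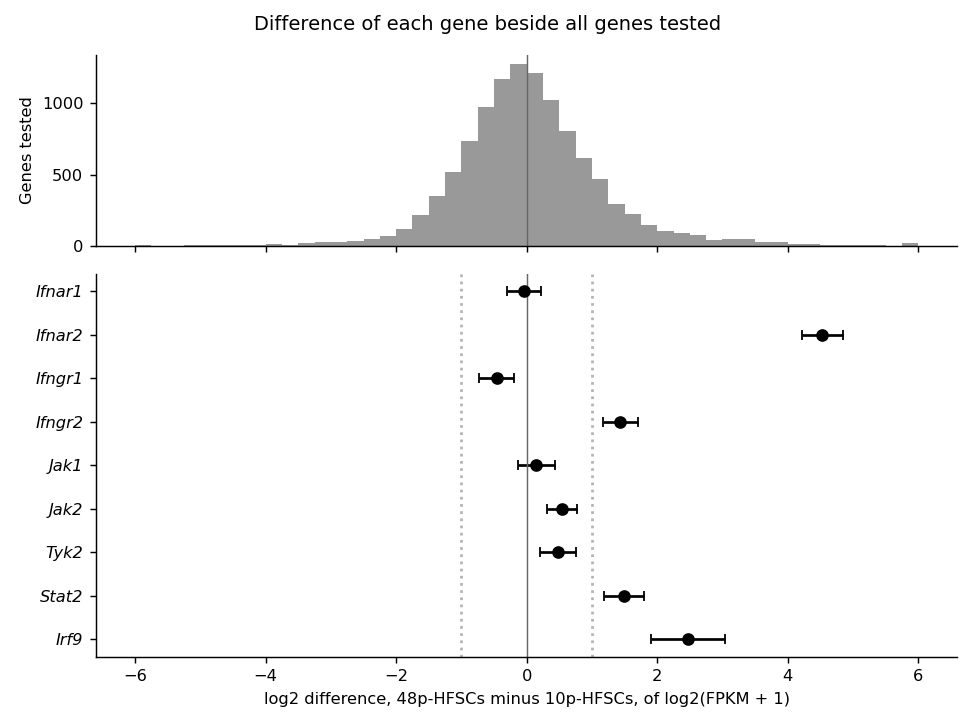
Upper panel, number of genes tested by log2 difference of log2(FPKM + 1), 48p-HFSCs minus 10p-HFSCs, with values beyond the axis counted in the end bins. Lower panel, the 9 genes as points with the limma standard error as bars and dotted lines at a log2 difference of 1 in either direction. Ifnar2 (4.53) and Irf9 (2.48) lie farthest to the right. TPM rescaling, not plotted, moved the median of all genes by -0.52 and put Jak1, Jak2 and Tyk2 at -0.42, -0.02 and -0.03. Relative to the rescaled median of all genes they were at 0.14, 0.54 and 0.53.

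Of the 9 genes, 3 lie in 1 cluster on chromosome 16 of mm10. In order along the plus strand, Ifnar2 spans 91372783 to 91405589, Ifnar1 91485238 to 91507441 and Ifngr2 91547072 to 91565623. Il10rb, which encodes the chain shared by the receptors of interleukin 10 and of the type III interferons, lies between Ifnar2 and Ifnar1, and starts 0.575 kb after the end of Ifnar2. Like Ifnar2, Il10rb was given as 0 in each 10p-HFSC library, and it was at an FPKM of 10.5 and 7.88 in 48p-HFSCs, with 3.34 as the log2 difference (SE 0.27, limma adjusted p = 0.0012). The annotation also holds Gm21970, a gene model on the same strand from 91391721 to 91419451 that overlaps both Ifnar2 and Il10rb and was not among the symbols, so the values of the pair could depend on how such reads were assigned.

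The change was not shared by the whole neighbourhood. Within 200 kb on either side of the cluster, 10 protein-coding genes other than the 3 receptor genes were listed, and 7 of them were tested. Il10rb and Tmem50b were called higher in 48p-HFSCs and Itsn1 was called lower, beside 10.8% and 9.15% of all genes tested. Gart, Son, Donson and Cryzl1 were not called. For these genes and Itsn1 both 48p-HFSC values lay below both 10p-HFSC values, as for 34.3% of all genes tested. Tmem50b, next to Ifngr2 on the opposite strand, rose from 8.28 and 9.67 to 25.7 and 31.5, with 1.57 as the log2 difference (SE 0.26, limma adjusted p = 0.013). Itsn1 fell from 12.6 and 9.91 to 5.04 and 3.65, with -1.20 as the log2 difference (SE 0.30, limma adjusted p = 0.040). Olig2 and Olig1, upstream of Ifnar2, were at 0 in all 4 libraries, and Dnajc28 was at 0.022 or less. Ifnar1, whose libraries overlapped between the groups, therefore lay between the pair listed at 0 in 10p-HFSCs and a pair with about 3-fold higher means in 48p-HFSCs.

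**Figure D3:**
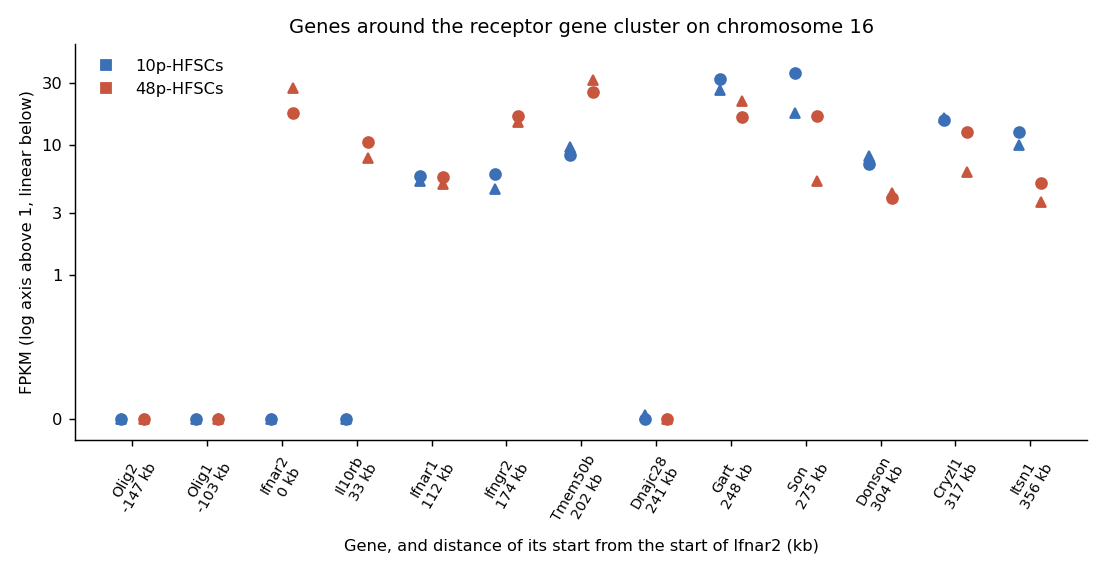
FPKM of the protein-coding genes listed within 200 kb of the receptor cluster, in their order along chromosome 16, for 10p-HFSCs (blue) and 48p-HFSCs (red), with replicate 1 as circles and replicate 2 as triangles. The axis is logarithmic above 1 and linear below. Ifnar2 and Il10rb are at 0 in both 10p-HFSC libraries, while Ifnar1, 112 kb from the start of Ifnar2, is level between the groups.

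By the Euclidean distance of log2(FPKM + 1) over the 4 libraries, the 5 genes nearest to Ifnar2 were Wnt7a (0.21), 2410141K09Rik (0.23), Gdf15 (0.31), Tmem98 (0.35) and Snrpn (0.45). Each was at 0.232 or less in both 10p-HFSC libraries and at 12.7 or more in both 48p-HFSC libraries. Such levels follow from the choice by these same values. None lies on chromosome 16.

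The other genes of the pathway were taken from 6 lists of 116 genes in all, of which 62 were tested. In 48p-HFSCs 24 were called higher and 5 lower, beside 10.8% and 9.15% of all genes tested. The list of interferon targets held 12 of the 24, and many of its members were known to be high when it was written. In these lists, as among all genes tested, a gene under 1 FPKM in both libraries of 1 group passed the filter only through the other group. Nothing is therefore read from the total. With TPM rescaling 18 were called higher and 5 lower, beside 5.65% and 7.37% of all genes, and with no filter 4 and 0 were, beside 0.476% and 0.468%. Without replicate 1 or replicate 2 of 10p-HFSCs 0 were called higher, beside 0.318% and 0.327% of all genes, and 1 and 2 were called lower, beside 1.27% and 1.33%. Among the ligands, none of 21 interferon genes passed the filter. Of these, 19 were at 0 in all libraries and the highest value of any was an FPKM of 0.275, so interferon transcripts were not detectable at this depth in either group beyond such traces.

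Of 39 other receptor chains that signal through Janus kinases, 13 were tested, and 4 were called higher and 3 lower, against the same shares of all genes. The chains of the type III interferon receptor moved in opposite directions. Ifnlr1, the chain specific to that receptor, fell from 3.27 and 3.46 to 0.046 and 0.055, with -2.06 as the log2 difference (SE 0.23, limma adjusted p = 0.0031), while Il10rb, its partner, rose from 0 as given above. In neither group were both chains at an FPKM of 1 or more. Crlf2, which encodes the receptor chain for TSLP, was at 6.57 and 6.92 in 10p-HFSCs and was given as 0 in both libraries of 48p-HFSCs, with -2.95 as the log2 difference (limma adjusted p = 0.0012). Il15ra also fell, from 3.06 and 3.52 to 0.353 and 0. The growth hormone receptor gene Ghr rose from 0.812 and 0.844 to 13.8 and 22.0 (limma adjusted p = 0.0020), and Lepr and Il11ra1 rose from an FPKM under 1 to between 2.21 and 9.81. Il6st, the shared chain of the interleukin 6 family, and Il13ra1 were at 10 or more in at least 1 library and were not called.

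None of the 5 tested genes among the other Janus kinases and STATs was called by limma. An unadjusted limma p-value under 0.05 was found for 3 of the 5, beside 4118 of the 11018 genes tested. The log2 difference was positive for 2 of the 5. Stat3, which encodes the main STAT of the interleukin 6 family, was at 26.7 and 22.6 and then at 47.5 and 37.3, with 0.75 as the log2 difference (SE 0.26, limma adjusted p = 0.098). Stat6 was at 14.4 to 31.3 in the 4 libraries, and Jak3 at 1.75 to 5.41.

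Of 20 negative regulators, 19 were tested, 4 were called higher and 2 lower, beside 10.8% and 9.15% of all genes tested, so the count called lower was near that of all genes. Usp18, which encodes a protease that removes ISG15 and blocks IFNAR2, rose from 6.51 and 4.22 to 47.1 and 24.1, with 2.47 as the log2 difference (SE 0.40, limma adjusted p = 0.011). The SOCS family members Cish and Socs2 rose, Cish from 3.17 and 3.83 to 14.2 and 15.02 and Socs2 from 0.026 and 0 to 7.47 and 3.86, and the phosphatase gene Ptpn6 rose from 2.52 and 1.79 to 8.15 and 5.81. Socs5 fell from 34.4 and 30.8 to 10.4 and 2.92 (limma adjusted p = 0.029), and Pias2 from 17.3 and 14.4 to 6.70 and 5.56 (limma adjusted p = 0.028). Socs1, the main SOCS inhibitor of interferon signaling, was at 9.53 and 10.1 and then at 8.59 and 4.53, and Socs3 at 4.19 to 12.7 over the 4 libraries. Neither was called, nor were Socs6, Socs7, Pias1, Pias3, Pias4, Ptpn1, Ptpn2, Ptpn11 and Sh2b3, which were at 10 or more in at least 1 library. Pias3 missed only the fold limit, with a log2 difference of 0.96 (limma adjusted p = 0.040).

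Of 8 other genes of the IRF family, 6 were tested and 4 were called higher, beside 10.8% of all genes tested. Irf7, which is itself induced by interferon, rose from 6.68 and 6.14 to 64.1 and 50.1, with 2.96 as the log2 difference (SE 0.26, limma adjusted p = 0.0016). Irf1, which is induced by type II interferon, rose from 32.9 and 29.0 to 80.7 and 80.2 (limma adjusted p = 0.016). Irf5 had 0 in both libraries of 10p-HFSCs, against 3.15 and 2.84 after 48 passages. Irf2 and Irf3 were at 10.3 to 34.9 in the 4 libraries and were not called.

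**Figure D4:**
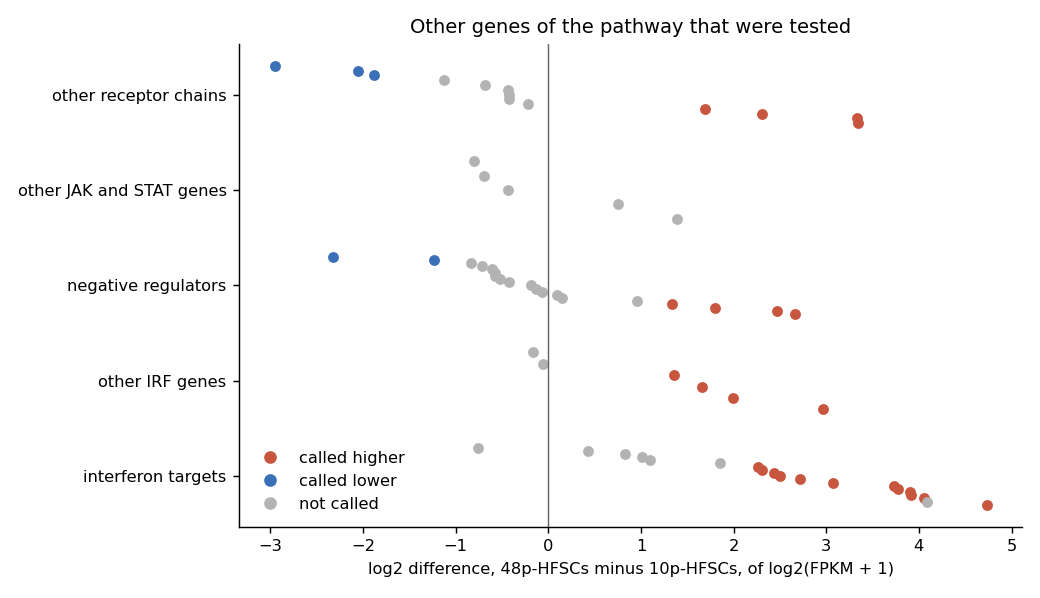
Log2 difference of log2(FPKM + 1), 48p-HFSCs minus 10p-HFSCs, of each tested gene in 5 lists of the pathway, spread within a row by rank. Red points were called higher, blue points called lower and grey points not called by limma. The list of interferon targets holds 12 red points and 0 blue points, while receptor chains and negative regulators hold both.

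Of 21 target genes of ISGF3, 19 were tested and 12 were called higher, beside 10.8% of all genes tested. The 48p-HFSC libraries both exceeded the 10p-HFSC libraries for 17 of the 19, beside 31.7% of all genes. Many of the 17, among them Rsad2, Oasl1, Xaf1, Ifi44, Ifit1 and Ifih1, were under 1 FPKM in both 10p-HFSC libraries. These genes passed the filter only through the 48p-HFSC libraries, so this outcome was fixed for them in advance. Many members of this list were known to be high in 48p-HFSCs when it was written, so its count is no independent evidence of a direction. Its median log2 difference was 2.50. Rsad2, which encodes the antiviral enzyme viperin, rose from 0.096 and 0.076 to 16.5 and 14.03 (log2 difference 3.90, standard error 0.26, limma adjusted p = 0.000926). Oasl1 rose from 0.127 and 0.071 to 27.1 and 10.8, Xaf1 from 0.619 and 0.817 to 25.4 and 19.9, and Ifi44 from 0.036 and 0 to 54.4 and 12.2. The other genes called higher were Ifit2, Ifit3, Isg15, Mx1, Oas1a, Oas2, Oasl2 and Rtp4. Of the genes not called, Ifit1 was at 0.261 and 0.112 and then at 76.3 and 4.21 (limma adjusted p = 0.059), Ifih1 was given as 0 in each 10p-HFSC library and then at 5.44 and 1.01 (limma adjusted p = 0.061), Ddx58 and Oas3 were at 10 or more in 1 library, and Ifi35 was at 54.7 to 89.2. Bst2 was at 95.2 and 133 FPKM after 10 passages and at 68.0 and 64.4 FPKM after 48 passages, the only 1 of the 19 with a negative difference.

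The replicates of 48p-HFSCs differed in these genes in 1 direction. All 19 tested targets were higher in replicate 1 than in replicate 2, with a median ratio of 2.69, beside 5370 of the 11018 genes tested and a median ratio of 0.982. Among the 9 genes of the receptor pathway, Irf9 followed this with a ratio of 3.54 and a log2 difference between the replicates above that of 98.4% of genes tested. Stat2, at 1.55, lay above 80.6%. Tyk2 had a ratio of 1.30, Ifngr2, Ifnar1, Jak1 and Jak2 had ratios of 1.04 to 1.13, Ifngr1 was at 0.841, and Ifnar2 was lower in replicate 1, at 0.633. The median log2 difference of the targets from 10p-HFSCs was 3.39 in replicate 1 and 1.70 in replicate 2. With 1 library for each value this difference between replicates has no test, and the shift of replicate 2 with exon length and its lower depth, given above, move with it. Their part was not tested.

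**Figure D5:**
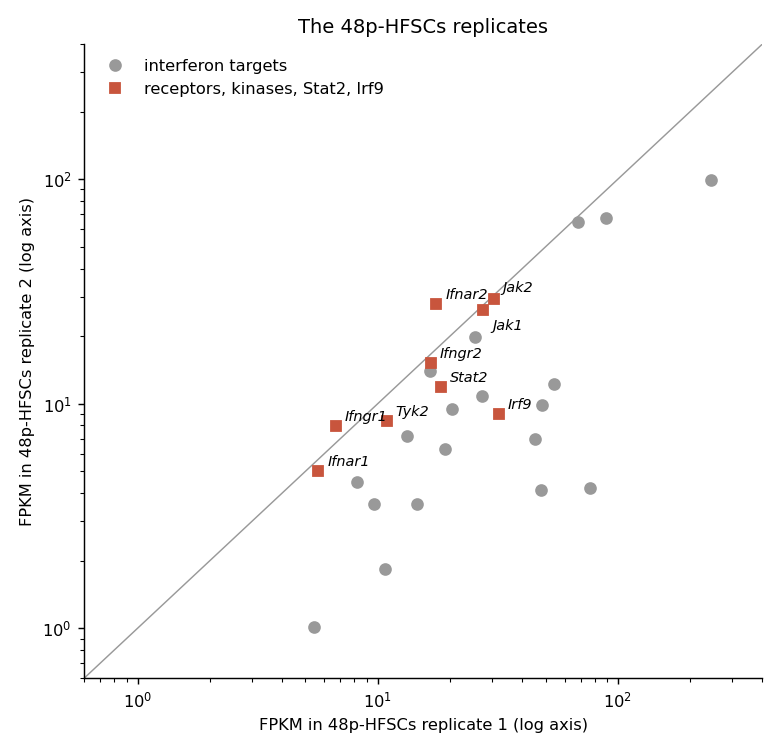
FPKM in replicate 2 against replicate 1 of 48p-HFSCs on log axes for the 9 genes (red squares, named) and the 19 tested interferon targets (grey circles), with a line where both are equal. All 19 targets and Irf9 lie below the line, while Jak1, Jak2, Ifnar1 and Ifngr2 lie close to it and Ifnar2 above it.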

How the data were processed

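The authors mapped single-end reads of stranded mRNA libraries to mm10 with TopHat 2.1.1, Bowtie2 and SAMtools, and deposited 1 FPKM value for each gene symbol and library, computed with version 2.2.1 of Cufflinks by the paper or of Cuffdiff by the submitters' processing notes. The sources also differ in the versions of Bowtie2 and SAMtools, and the annotation, the strand setting and the treatment of multi-mapped reads are not given in the sources used here. FPKM values are no counts, so no count model was fitted and no counting interval can be given.

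Here, log2(FPKM + 1) of the 11018 genes that reached 1 FPKM in 2 or more libraries was compared between groups with limma 3.58.1 in R 4.3.3 (lmFit, then eBayes with trend), and p-values were adjusted by Benjamini and Hochberg's method across every gene tested. A call required an adjusted p below 0.05 together with a log2 difference of 1 or more in size. With 2 libraries against 2, the smallest two-sided p of an exact permutation test is 0.333, so calls rest on the variance shared across genes. Libraries were grouped by the passage number in their labels. Relative depth was read from the ratio that recurred most among FPKM values under 0.3 in pairs of libraries. Gene positions came from GENCODE M21 (GRCm38) and promoter windows from RefSeq.

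The 9 genes, the lists and the tests were chosen with earlier results of these data known. The genes named are the 9, the listed pathway genes that were called, at an FPKM of 10 or more in any library, or at 0 in 1 group only, the neighbours on chromosome 16, the 5 genes nearest to Ifnar2, and cell type markers. Jak3, Rnf31 and Dnajc28 were named beside a result. Some genes that meet this rule are counted in their lists but not reported here by name. Alternatives were a pseudocount of 0.1, no filter, a mean FPKM of at least 1, TPM rescaling, median-of-ratios scaling, a constant variance prior, the replicate number as a block, and leaving out each library. A filter that dropped genes at 0 in all libraries and a TPM filter were added after seeing the data.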

Additional observations from a re-analysis of the deposited data

How the results depend on the processing

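Of 117 values of the 9 genes under 13 alternatives, 16 moved by 1 replicate SD or more from the reported difference, 14 of them under TPM rescaling with either filter. This count is no measure of stability, because many of the alternatives could not move a value further. Other filters on FPKM, the constant variance prior and the replicate block leave each log2 difference unchanged. Leaving out 1 of 2 libraries can move it by 1 replicate SD at most. No call of a pathway gene changed direction. Of 377 recomputed calls of the 29 called pathway genes, 263 were kept, and 0 of the 29 genes were called under all 13 alternatives. With no filter on low values (24346 symbols), 116 genes were higher and 114 lower, 4 pathway genes were higher and 0 lower, and 0 of the 9 genes lay past the limits. The cause was not tested. Leaving out the genes at 0 in all libraries, a form chosen after seeing the data and these counts, gave 816 genes higher and 637 lower, 15 pathway genes higher and 3 lower, and 2 of the 9 genes past the limits. TPM rescaling gave 623 genes higher and 812 lower, so that 43.4% of calls were higher in place of 54.1%, and 1 of the 9 genes past the limits. With the filter set on TPM values, a form that was also run and is listed as chosen after seeing the data, 616 genes were higher and 900 lower, and 1 of the 9 genes lay past the limits. With each library left out in turn, 35 to 1936 genes were higher and 140 to 1875 lower, 0 to 27 pathway genes were higher and 1 to 11 lower, and 0 to 4 of the 9 genes lay past the limits. The lowest counts were those without replicate 1 or replicate 2 of 10p-HFSCs, where the lone 10p-HFSC library is assumed to vary like 48p-HFSCs. The highest were those without replicate 1 of 48p-HFSCs for all genes and for pathway genes called lower. The replicate numbers share only a number, as no source states that same-numbered libraries were made together, and across genes the deviations of same-numbered libraries correlated at 0.408. A replicate block in the fit called 1613 genes higher and 1497 lower, 29 pathway genes higher and 6 lower, and 4 of the 9 genes lay past the limits. Depth limits low values most in replicate 2 of 48p-HFSCs.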
